A study of Mus musculus with 10 samples.

Results

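Genes for lipid droplet proteins and for the control of the droplet's lipases were followed across 4 groups of mouse livers. The set was defined by gene name and held 10 genes. They are Pnpla2, Pnpla3 and G0s2 of the lipase system, the perilipin genes Plin2, Plin3, Plin4 and Plin5, and the CIDE genes Cidea, Cideb and Cidec. Each gene was read from the transcript cluster annotated to its symbol alone, taking the brightest by its mean over the arrays. This gave 9 of the 10 genes, out of 22180 genes measured the same way. The array's annotation places Cideb in a cluster together with Nop9, so Cideb has no value here.

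The livers came from fasted male mice that had been infected about 2 weeks earlier with an adeno-associated virus (AAV). Its TBG promoter is, as background, active in hepatocytes. The virus carried FST288, an isoform of follistatin, or GFP, the control. The groups were LTKO mice with FST288 (LTKO FST288, n = 2), LTKO mice with GFP (LTKO GFP, n = 2), wild-type mice fed high-fat diet with FST288 (HFD FST288, n = 3) and their controls on that diet with GFP (HFD GFP, n = 3). Every group carried a virus, so no uninfected liver enters a comparison. The labels give neither strain nor age, leave LTKO unexplained and do not state the diet of the LTKO mice. As background, the name LTKO is used for mice that lack Irs1, Irs2 and Foxo1 in the liver. Genotype and diet therefore cannot be told apart wherever LTKO and HFD livers are compared. Whether every array stands for its own animal is not stated, and p-values then cover only the spread among these arrays, which may be technical.

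Triglyceride is stored in hepatocytes inside droplets with a coat of proteins. Adipose triglyceride lipase (ATGL), the product of Pnpla2, takes the first fatty acid off stored triglyceride. It is activated by the product of Abhd5, also called CGI-58, and inhibited by the product of G0s2. Perilipins cover the droplet surface and govern the access of lipases to it. CIDE proteins sit where droplets touch and help small droplets merge into larger ones. In fasted liver, fat arrives from adipose tissue, so droplet genes are commonly read as part of the fasting response.

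Levels are log2 values from RMA, which gives every array a common distribution, and a difference of 1 is a doubling of array signal. Array medians of the 22180 genes lay between 3.10 and 3.17, and the median SD within a group was 0.16. Calls were made with limma where the p adjusted by Benjamini-Hochberg over all 22180 genes of a comparison was under 0.05. The ± on a change is the standard error of that fit, and the ± on a group mean is the SD. Fst, the cargo gene, lay at 5.78 to 6.85 on the 5 FST288 arrays and at 5.22 to 5.39 on the 5 GFP arrays. With GFP, Foxo1 was 3.21-fold lower in LTKO livers (limma, adjusted p = 1.49e-06), as were Irs1 by 3.40-fold (adjusted p = 5.21e-06) and Irs2 by 2.31-fold (adjusted p = 0.00409). On the LTKO GFP arrays Irs1 read 3.19 and 3.10 and Irs2 2.52 and 3.36, near the array median, where a fold is not an exact measure. A pair of HFD FST288 arrays stood apart. The median of 8 pancreatic acinar markers reached 8.44 on replicate 2 and 7.40 on replicate 3, while replicate 1 was at 2.49 and the arrays of the other groups at 2.07 to 2.36. LTKO FST288 replicate 2 also stood apart, with a median of 7 Kupffer cell and macrophage markers of 7.59 against 5.55 to 6.13 on the other 9 arrays.

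In LTKO livers G0s2, Plin5 and Plin2 were higher than in HFD livers, with either vector. With GFP, 3 of the 9 genes were higher and 0 lower, where 13.1% of all genes were called, 6.69% higher and 6.40% lower. With FST288, 4 of the 9 were higher and 0 lower, where 10.3% of all genes were called, 5.05% higher and 5.29% lower; the additional gene was Cidec. FST288 raised G0s2 and Plin5 in HFD livers, 2 of 9 genes, where 0.577% of all genes rose and 0.419% fell. In LTKO livers FST288 raised Cidec, 1 of 9, where 0.0992% of all genes rose and 0.0676% fell. No gene of the set fell in these 4 comparisons by limma at an adjusted p under 0.05. The difference between the FST288 effects in LTKO and HFD livers was called for none of the 9 genes by limma, where 0.216% of all genes were called; 4 of the 9 had an unadjusted p under 0.05, as had 2795 of the 22180 genes.

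**Figure D1:**
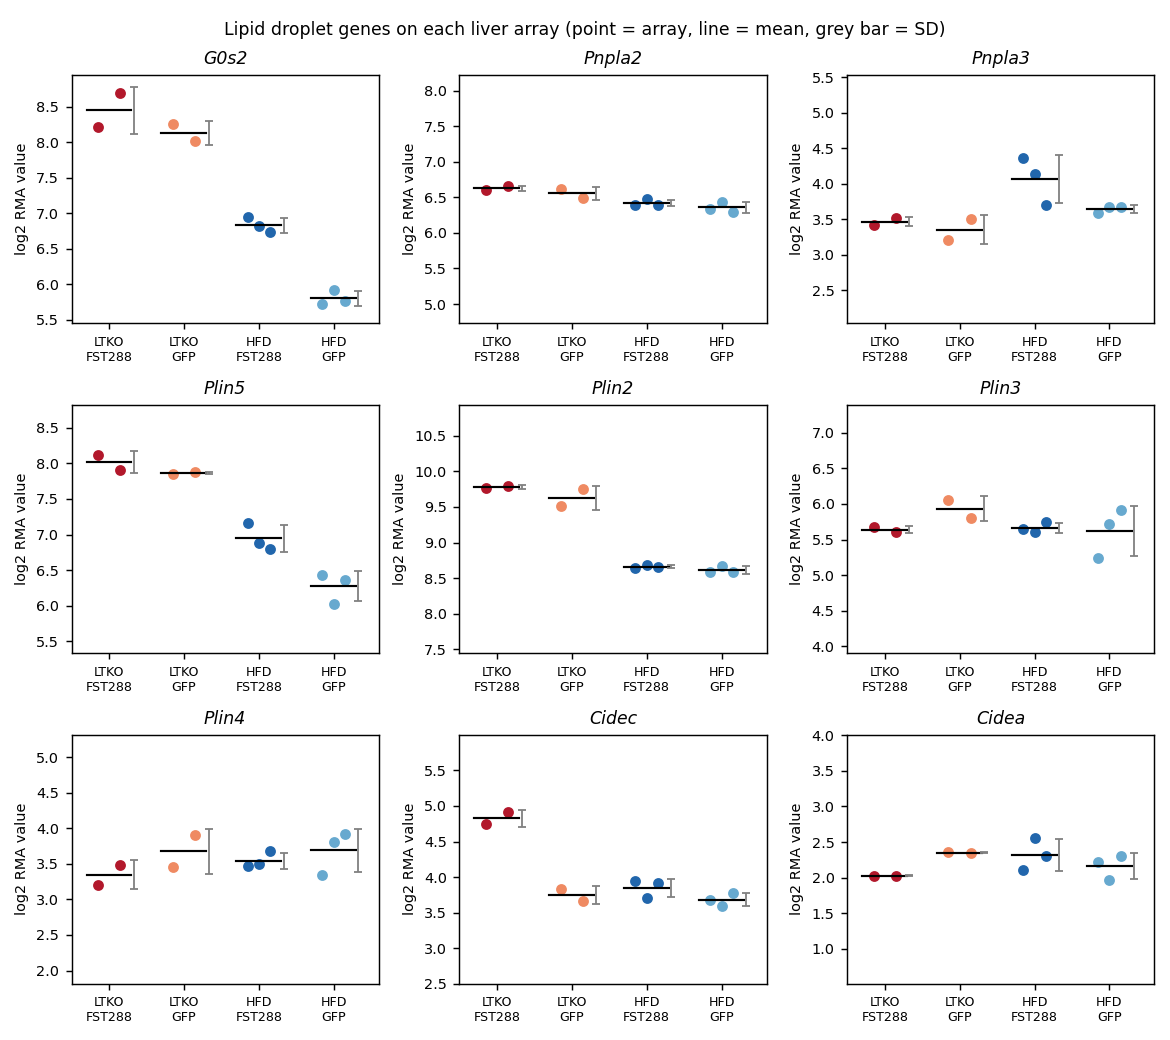
Level of each gene on every array (vertical axes, log2 RMA value, each spanning 3.5 units) in LTKO FST288, LTKO GFP, HFD FST288 and HFD GFP livers. Points are arrays, black lines are group means and grey bars are SD; G0s2 runs from 8.69 on an LTKO FST288 array to 5.72 on an HFD GFP array, while Pnpla2 stays between 6.30 and 6.66.

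G0s2 encodes the inhibitor of ATGL and had the widest range of the set. Its values were 8.25 and 8.01 on the LTKO GFP arrays, against 5.72, 5.93 and 5.76 on the HFD GFP arrays. The groups did not overlap, and the LTKO mean was 5.03-fold higher (2.33 ± 0.14 on the log2 scale, limma, adjusted p = 1.38e-07), which ranked 45th by p among all genes. With FST288 the arrays read 8.21 and 8.69 in LTKO livers, against 6.95, 6.82 and 6.73 in HFD livers. Here too the groups lay apart, and the LTKO mean was 3.07-fold higher (limma, adjusted p = 4.12e-06).

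Within HFD livers the 3 FST288 arrays of G0s2 all lay above the 3 GFP arrays. The rise was 2.04-fold (1.03 ± 0.12 on the log2 scale, limma, adjusted p = 0.00119), ranked 25th by p. The call was kept in all 10 leave-one-out fits, with changes from 0.97 to 1.09. Within LTKO livers the FST288 and GFP arrays overlapped, and the difference was 0.32 ± 0.15 (95% interval -0.01 to 0.64, limma, adjusted p = 0.52). The FST288 effect in LTKO minus that in HFD livers was -0.71 ± 0.20 (95% interval -1.14 to -0.29). This difference was not called over all genes (limma, adjusted p = 0.166), so the effects were not shown to differ at that threshold.

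Ordered by mean, G0s2 was at 8.45 ± 0.33 in LTKO FST288, 8.13 ± 0.17 in LTKO GFP, 6.83 ± 0.11 in HFD FST288 and 5.80 ± 0.11 in HFD GFP livers (SD, n = 2, 2, 3 and 3). The first pair in this order did not differ beyond its spread. A dimmer cluster carries the same symbol and read 2.59 to 3.37 over the 10 arrays, where a fold is not an exact measure. There the difference of LTKO minus HFD livers with GFP was 0.11 ± 0.15 (limma over all 41345 clusters, adjusted p = 0.741). Its FST288 effect was 0.44 ± 0.16 in LTKO and 0.15 ± 0.13 in HFD livers (same fit, adjusted p = 0.52 and 0.757). The effects thus differed by 0.29 ± 0.21 (adjusted p = 0.652), opposite in sign to the -0.71 of the brighter cluster, and neither difference was called. With the mean of both clusters, the G0s2 changes were 1.22 for LTKO against HFD livers with GFP and 0.59 for FST288 in HFD livers, both called.

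Pnpla2, the gene of ATGL itself, was nearly level. It read 6.62 and 6.50 on the LTKO GFP arrays, against 6.34, 6.44 and 6.30 on the HFD GFP arrays. The LTKO arrays were all higher, but the difference was 0.20 ± 0.10 (95% interval -0.02 to 0.41, limma, adjusted p = 0.239). With FST288 the values were 6.61 and 6.66 in LTKO livers, against 6.40, 6.48 and 6.39 in HFD livers, a difference of 0.21 ± 0.10 (adjusted p = 0.257). The FST288 effect was 0.06 ± 0.09 in HFD livers and 0.07 ± 0.11 in LTKO livers (limma, adjusted p = 0.847 and 0.884). The intervals of these FST288 effects, -0.13 to 0.26 and -0.16 to 0.31, leave out a change of 1.5-fold in either direction, whereas that of G0s2 in HFD livers ran from 1.70-fold to 2.46-fold.

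Pnpla3 encodes a droplet protein related to ATGL, which can take its activator CGI-58 away from it. It read 4.37, 4.14 and 3.70 on the HFD FST288 arrays, against 3.58, 3.68 and 3.67 on the HFD GFP arrays. All FST288 arrays were above the GFP arrays, replicate 3 only just, and the difference of 0.43 ± 0.16 was not called (limma, adjusted p = 0.295). On the LTKO FST288 arrays it read 3.42 and 3.51, so every LTKO FST288 array lay below every HFD FST288 array. That difference was -0.60 ± 0.18 and missed the threshold (limma, adjusted p = 0.054). It was called without HFD FST288 replicate 3, at -0.79 (limma, adjusted p = 0.0103), but in no other leave-one-out fit. Over the 10 such fits the change ran from -0.79 to -0.45. A call was also made in 4 further settings. Among them is the fit without the HFD FST288 arrays high in acinar markers, which leaves 1 array in that group. LTKO GFP arrays read 3.21 and 3.50, also below the HFD GFP arrays, with a difference of -0.29 ± 0.18 (adjusted p = 0.367). Outside the HFD FST288 group the values lay little above the array medians of 3.10 to 3.17, so a fold of Pnpla3 is not an exact measure.

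Plin5 was the perilipin gene with the widest range over the arrays. Its product coats droplets in tissues that burn fatty acids and links them to mitochondria. It read 7.85 and 7.88 on the LTKO GFP arrays, against 6.43, 6.03 and 6.36 on the HFD GFP arrays. The groups were well apart, and the LTKO mean was 3.02-fold higher (1.59 ± 0.14, limma, adjusted p = 4.82e-06). With FST288 it read 8.13 and 7.91 in LTKO livers, against 7.16, 6.88 and 6.80 in HFD livers, 2.10-fold higher in LTKO (limma, adjusted p = 0.000169).

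FST288 raised Plin5 1.59-fold in HFD livers (0.67 ± 0.12, limma, adjusted p = 0.0186), with every FST288 array above every GFP array. The adjusted p passed 0.05 when HFD GFP replicate 2 (change 0.55, adjusted p = 0.0813) or replicate 3 (0.72, adjusted p = 0.0553) was left out. The same held on leaving out HFD FST288 replicate 1 (0.57, adjusted p = 0.067) or replicate 2 (0.71, adjusted p = 0.0687). In LTKO livers the FST288 effect was 0.15 ± 0.15 (95% interval -0.18 to 0.48, limma, adjusted p = 0.816). The effects in LTKO and HFD livers differed by -0.52 ± 0.20 (95% interval -0.95 to -0.10), which was not called (limma, adjusted p = 0.3).

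HFD FST288 replicate 1, the array of its group without raised acinar markers, had the highest G0s2 and Plin5 of that group. With this array as the sole HFD FST288 sample, the FST288 effect in HFD livers was 1.14 for G0s2 and 0.88 for Plin5, but neither was called (limma, adjusted p = 0.0775 and 0.158). That fit assumes that the lone array varies like those of the other groups. With the acinar median as a covariate, G0s2 was at 1.14 and called (adjusted p = 0.045), and Plin5 at 0.89 (adjusted p = 0.0956).

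Plin2 encodes the most widely expressed coat protein of hepatocyte droplets, whose amount tends to follow stored fat. It read 9.51 and 9.75 on the LTKO GFP arrays, against 8.58, 8.67 and 8.59 on the HFD GFP arrays. The LTKO mean was 2.02-fold higher (1.02 ± 0.08, limma, adjusted p = 3.00e-06), and the groups did not overlap. With FST288 it read 9.76 and 9.80 in LTKO livers, against 8.64, 8.68 and 8.66 in HFD livers, 2.18-fold higher in LTKO (limma, adjusted p = 1.16e-06). The FST288 effect was 0.05 ± 0.07 in HFD livers, with a 95% interval of -0.11 to 0.21, and 0.15 ± 0.09 in LTKO livers, with an interval of -0.05 to 0.35 (limma, adjusted p = 0.866 and 0.639). Plin2 thus differed between LTKO and HFD livers by a similar size with either vector and showed no called effect of FST288.

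Plin3 and Plin4 gave no call in any comparison by limma. Plin3, whose product moves from the cytosol onto new droplets, lay between 5.24 and 6.06 over the 10 arrays. Its differences between groups ran from -0.29 ± 0.18 for FST288 in LTKO livers to 0.31 ± 0.17 for LTKO against HFD livers with GFP (limma, adjusted p = 0.663 and 0.284). The FST288 effect on Plin3 in LTKO minus that in HFD livers was -0.34 ± 0.24 (limma, adjusted p = 0.607). Plin4, best known as a coat protein of fat cells, lay between 3.21 and 3.92, little above the array medians, where a fold is not an exact measure. Its differences ran from -0.33 ± 0.21 for FST288 in LTKO livers to -0.01 ± 0.19 for LTKO against HFD livers with GFP (limma, adjusted p = 0.677 and 0.979). Plin4 and Plin5 are direct neighbours on chromosome 17 with 0 coding genes between them, and Plin3 lies 7 coding genes away. Of these 3, Plin5 alone passed the test in any comparison.

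Cidec encodes FSP27, which enlarges droplets. It read 4.74 and 4.91 on the LTKO FST288 arrays, against 3.83 and 3.66 on the LTKO GFP arrays. Both FST288 arrays lay above the GFP arrays, and the rise was 2.11-fold (1.08 ± 0.15, limma, adjusted p = 0.0142), ranked 14th by p. With so few arrays, the uncalled Plin2, Plin3, Plin5 and Cidea also did not overlap in this comparison, in one direction or the other. For Cidec, the HFD arrays read 3.94, 3.70 and 3.91 with FST288, against 3.68, 3.59 and 3.78 with GFP, and these groups overlapped. All arrays but those of LTKO FST288 lay little above the array medians of 3.10 to 3.17, so a fold of Cidec is not an exact measure. In HFD livers the FST288 effect was 0.17 ± 0.13 (95% interval -0.10 to 0.44, limma, adjusted p = 0.668).

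The LTKO FST288 livers were thus the group set apart for Cidec. They exceeded the HFD FST288 livers 1.97-fold (limma, adjusted p = 0.000406), whereas with GFP the difference of LTKO minus HFD livers was 0.07 ± 0.14 (adjusted p = 0.84). The FST288 effect in LTKO minus that in HFD livers was 0.91 ± 0.20 (95% interval 0.48 to 1.34) and was not called over all genes (limma, adjusted p = 0.0911). The call in LTKO livers was lost without LTKO GFP replicate 2 (0.99, adjusted p = 0.0801) and without LTKO FST288 replicate 2 (1.00, adjusted p = 0.0744), the array high in Kupffer cell and macrophage markers. Fitted on the 4 LTKO arrays alone, where few degrees of freedom remain, the adjusted p was 0.303.

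Cidea, a CIDE gene best known from brown fat and fatty liver, lay between 1.96 and 2.55, under the array median on all 10 arrays, where a fold is not an exact measure. It gave no call by limma. Its values were 2.03 and 2.02 on the LTKO FST288 arrays, against 2.36 and 2.34 on the LTKO GFP arrays, a difference of -0.33 ± 0.17 (adjusted p = 0.551).

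**Figure D2:**
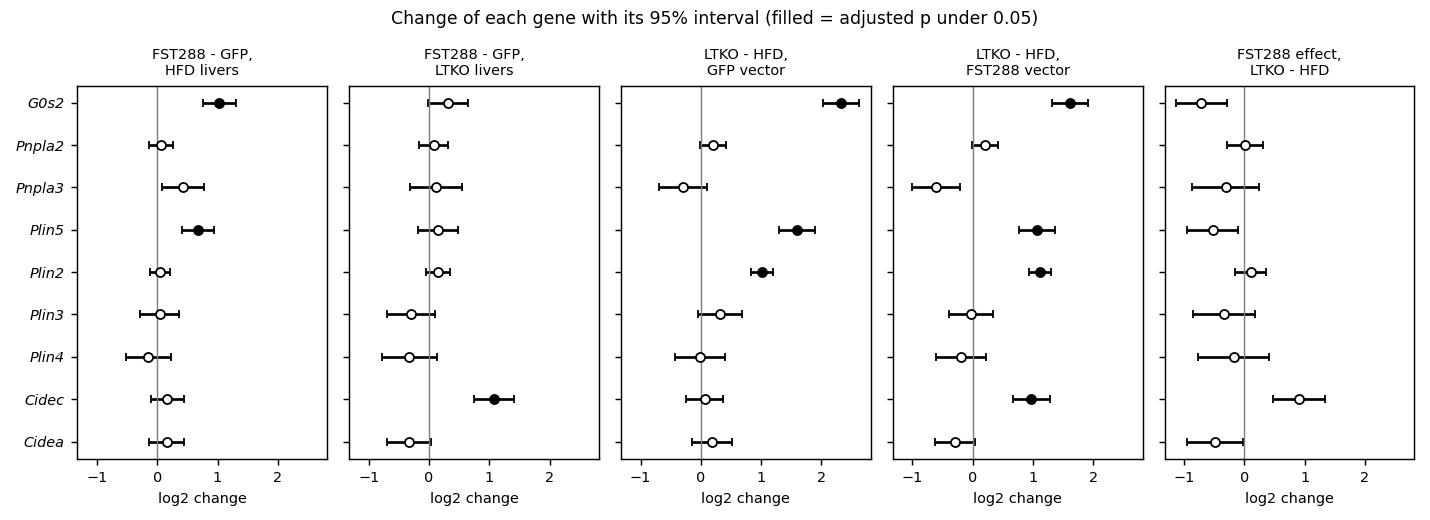
Log2 change (horizontal axes) of each gene with its 95% interval in the 5 comparisons, filled where the adjusted p over all genes was under 0.05. G0s2, Plin5 and Plin2 lie right of 0 in LTKO against HFD livers with either vector, G0s2 and Plin5 do so for FST288 in HFD livers, and Cidec does so for FST288 in LTKO livers.

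The median change of the 9 genes was 0.20 for LTKO against HFD livers with GFP and 0.21 with FST288, against 0.01 and -0.00 over all genes. For FST288 it was 0.16 in HFD livers and 0.11 in LTKO livers, against -0.00 and -0.02 over all genes. These comparisons share arrays in pairs and are not independent of each other. In HFD livers 8 of the 9 genes had a positive FST288 effect and in LTKO livers 6 of 9, most of them not called.

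**Figure D3:**
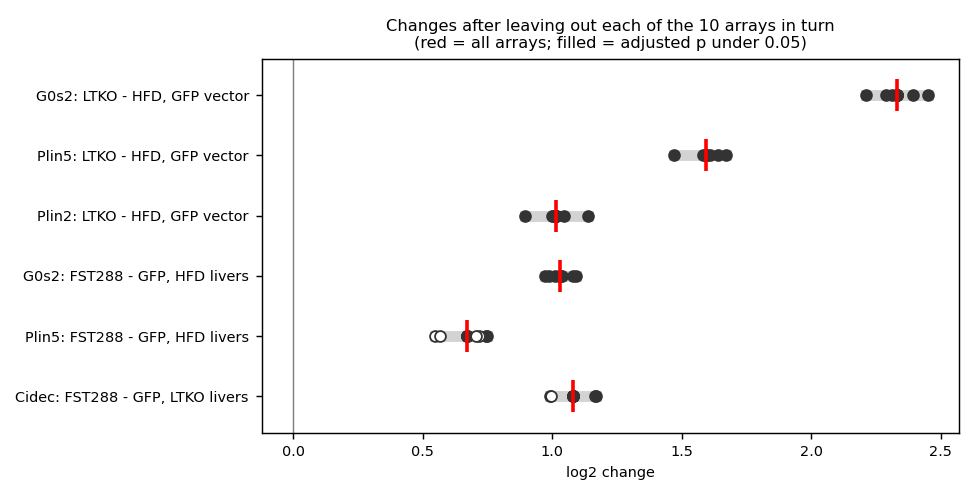
Log2 change (horizontal axis) for 6 called results of G0s2, Plin5, Plin2 and Cidec with all arrays (red) and after leaving out each of the 10 arrays in turn (circles, filled where the adjusted p was under 0.05). The results for LTKO against HFD livers and for G0s2 in HFD livers kept their calls in all 10 fits, Plin5 in HFD livers in 6 and Cidec in LTKO livers in 8.

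Over the 10 arrays G0s2 and Plin5 followed each other with a Pearson correlation of 0.96, and G0s2 and Plin2 with one of 0.92. Pnpla2, which gave no call, also had a correlation of 0.92 with G0s2, and of 0.87 with Plin2 and 0.83 with Plin5. The 4 groups set these figures, so they describe the order of the groups. Among 5627 other genes with a mean of at least 5, those most like G0s2 were Retsat (0.98), Zfand2b (0.98) and Fitm2 (0.98). Those most like Plin5 were Hacl1 (0.99), Retsat (0.98) and Cyp4a31 (0.98), and those most like Plin2 were Acot2, Pdk4 and Clpx (0.99 each). For Cidec, over 5628 genes, they were Nfkbib (0.92), Nek7 (0.91) and Arsg (0.91).

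The promoters of the 4 genes that passed a test are given because they were called in different comparisons. G0s2, Plin5 and Plin2 were called for LTKO against HFD livers with either vector, G0s2 and Plin5 also for FST288 in HFD livers, and Cidec for FST288 in LTKO livers and for LTKO against HFD livers with FST288. The sequences are RefSeq's for GRCm38.p6 and run from 250 bases before to 50 bases after an annotated start, on the gene's strand. All lie on the minus strand, G0s2 at chr1:193273139-193273438, Plin5 at chr17:56117499-56117798, Plin2 at chr4:86670010-86670309 and Cidec at chr6:113435711-113436010. Capitals mark AGGTCA, the hexamer that nuclear receptors such as PPARs bind, GTAAACA, a forkhead motif that FoxO factors bind, and CACGTG, an E-box, each searched on both strands.
G0s2: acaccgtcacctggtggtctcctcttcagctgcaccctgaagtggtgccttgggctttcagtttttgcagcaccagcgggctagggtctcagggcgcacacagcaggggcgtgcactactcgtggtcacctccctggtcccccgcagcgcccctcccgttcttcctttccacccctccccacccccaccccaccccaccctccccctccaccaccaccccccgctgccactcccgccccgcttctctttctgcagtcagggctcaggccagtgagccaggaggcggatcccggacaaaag
Plin5: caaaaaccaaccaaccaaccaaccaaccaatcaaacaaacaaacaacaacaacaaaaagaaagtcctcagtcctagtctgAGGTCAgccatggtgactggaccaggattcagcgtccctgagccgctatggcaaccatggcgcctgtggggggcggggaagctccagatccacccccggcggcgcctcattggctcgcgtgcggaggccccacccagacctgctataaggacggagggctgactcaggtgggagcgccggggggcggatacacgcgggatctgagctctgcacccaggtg
Plin2: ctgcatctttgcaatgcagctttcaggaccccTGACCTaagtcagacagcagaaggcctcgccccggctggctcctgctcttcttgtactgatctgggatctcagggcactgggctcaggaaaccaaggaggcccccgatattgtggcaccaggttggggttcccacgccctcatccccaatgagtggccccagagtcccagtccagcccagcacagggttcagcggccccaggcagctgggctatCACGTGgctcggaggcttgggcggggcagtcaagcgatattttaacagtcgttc
Cidec: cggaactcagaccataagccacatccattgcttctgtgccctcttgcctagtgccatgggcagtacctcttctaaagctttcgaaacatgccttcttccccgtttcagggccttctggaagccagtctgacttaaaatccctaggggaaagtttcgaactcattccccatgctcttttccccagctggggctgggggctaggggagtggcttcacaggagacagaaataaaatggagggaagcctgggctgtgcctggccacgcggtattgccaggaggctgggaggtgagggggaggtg
The Plin5 window holds AGGTCA once, and so does the window of its second annotated start. The Plin2 window holds AGGTCA once on the opposite strand and CACGTG once, across the start. No exact match of the 3 motifs lies in the windows of G0s2 or Cidec, the second annotated start of Cidec included, nor in those of Pnpla2, Pnpla3, Plin3 and Plin4. Over all 32851 promoter windows of this length, 16.3% hold AGGTCA, 7.15% hold CACGTG and 3.65% hold GTAAACA. A match of a few letters is a description and not a binding site.

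Other lipid hydrolases and their cofactors showed changes in both directions between LTKO and HFD livers. Of 14 genes listed, 13 were measured. With GFP, 4 of 13 were higher and 2 lower in LTKO livers, and with FST288 3 were higher and 5 lower. Over all genes, 6.69% were higher and 6.4% lower with GFP, and 5.05% and 5.29% with FST288. Higher with either vector were Mgll, the lipase that finishes triglyceride breakdown (0.69 ± 0.12 with GFP and 0.57 ± 0.12 with FST288), Lipa, the lysosomal acid lipase (0.48 ± 0.08 and 0.59 ± 0.08), and Ces1d, a triglyceride hydrolase of the endoplasmic reticulum (1.09 ± 0.13 and 0.64 ± 0.13). Ces1f, a related hydrolase, was higher with GFP (0.63 ± 0.15). Lower with either vector were Aadac, a microsomal esterase (-0.91 ± 0.10 and -1.36 ± 0.10), and the carboxylesterase gene Ces3b (-1.04 ± 0.11 and -1.20 ± 0.11).

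Abhd5, the activator of ATGL, read 6.16 and 5.67 on the LTKO FST288 arrays, against 6.77 to 6.84 on the HFD FST288 arrays. The LTKO mean was 1.85-fold lower (limma, adjusted p = 0.00052). With GFP the difference was -0.39 ± 0.13 (adjusted p = 0.072), and the FST288 effect in HFD livers was 0.51 ± 0.12 (adjusted p = 0.0661); neither was called. Ces3a (-0.28 ± 0.06) and Pnpla7 (-0.50 ± 0.12) were also lower in LTKO livers with FST288, calls lost in 4 and 3 of the 10 fits that left out an array. FST288 itself raised 1 of the 13 in HFD livers, Ces3b (0.52 ± 0.10, limma, adjusted p = 0.0252). That call was lost in 4 of the 10 such fits. In LTKO livers FST288 raised 0 of the 13, and 1 had an unadjusted p under 0.05, as had 2213 of the 22180 genes. Over all genes, 0.577% rose with FST288 in HFD livers and 0.0992% in LTKO livers. The median FST288 effect of the 13 in HFD livers was 0.26, with 11 of 13 positive, against a median of -0.00 over all genes. Of the 13, 10 had an unadjusted p under 0.05 in HFD livers, as had 2672 of the 22180 genes. Lipe, the hormone-sensitive lipase, gave no call by limma.

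Of 14 other coat and assembly genes, 13 were measured. In LTKO livers 6.69% of all genes were higher and 6.4% lower with GFP, and 5.05% and 5.29% with FST288. Of the 13, 4 were higher in LTKO livers with either vector. They were Fitm2, which helps droplets form (0.90 ± 0.12 with GFP and 0.61 ± 0.12 with FST288), Hsd17b11 (0.72 ± 0.10 and 0.66 ± 0.10), Mettl7b (0.57 ± 0.09 and 0.48 ± 0.09) and Aup1 (0.36 ± 0.08 and 0.41 ± 0.08), the last 3 coding for proteins found on droplets. Ldah, a droplet-associated hydrolase, was lower with FST288 (-0.56 ± 0.10, limma, adjusted p = 0.00286). FST288 changed 0 of the 13 in either background by limma, with 4 in HFD livers and 1 in LTKO livers at an unadjusted p under 0.05, as were 2672 and 2213 of the 22180 genes. Hilpda, coding for another ATGL inhibitor, gave no call by limma. Its LTKO minus HFD difference was 0.02 ± 0.12 with GFP and 0.30 ± 0.12 with FST288 (adjusted p = 0.949 and 0.162), and its FST288 effect was -0.00 ± 0.11 in HFD livers and 0.27 ± 0.13 in LTKO livers (adjusted p = 0.996 and 0.52).

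**Figure D4:**
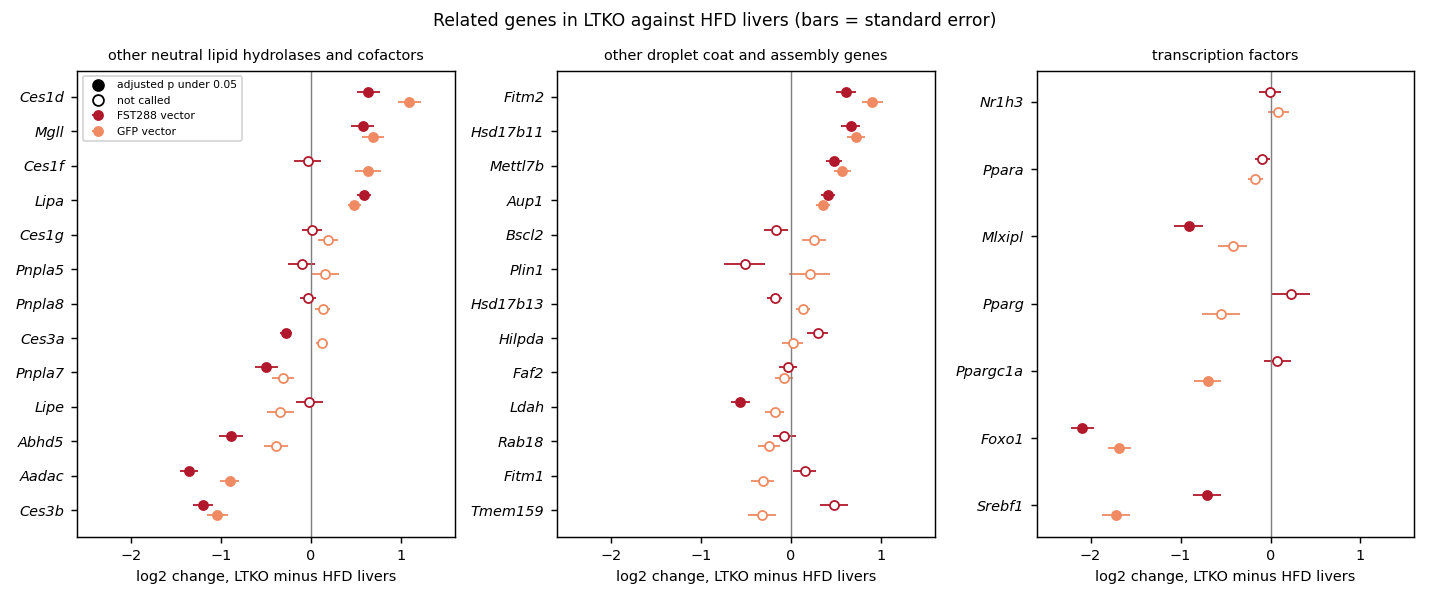
Log2 change in LTKO minus HFD livers (horizontal axes) for the related hydrolase, coat and transcription factor genes, in dark red with the FST288 vector and in orange with the GFP vector. Bars are standard errors and filled points had an adjusted p under 0.05; Ces1d, Mgll and Fitm2 lie right of 0, and Aadac, Ces3b, Foxo1 and Srebf1 lie left of it.

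Of 7 transcription factors known to act on genes of the set, 3 were lower and 0 higher in LTKO livers with either vector. Over all genes, 6.4% were lower with GFP and 5.29% with FST288. Foxo1, a direct activator of Pnpla2 in fasting as background, was lower by 3.21-fold with GFP and 4.27-fold with FST288. Srebf1, which drives Pnpla3, was 3.30-fold lower in LTKO than in HFD livers with GFP and 1.63-fold lower with FST288 (limma, adjusted p = 6.79e-06 and 0.00909), and FST288 lowered it 2.26-fold in HFD livers (adjusted p = 0.00108). The last call was lost without the acinar-high arrays (-1.08, adjusted p = 0.15) and with the acinar covariate (-1.04, adjusted p = 0.119). Ppargc1a was lower with GFP (-0.70 ± 0.15) and Mlxipl, the gene of ChREBP, with FST288 (-0.91 ± 0.16). Mlxipl moved to -0.53 without LTKO FST288 replicate 2. Averaged over its clusters, Foxo1 was at -0.90 with GFP and -1.18 with FST288, both called. Ppara, the receptor that switches on fasting genes, and Pparg gave no call by limma. Their LTKO minus HFD differences were -0.17 ± 0.08 and -0.55 ± 0.21 with GFP, and -0.09 ± 0.08 and 0.23 ± 0.21 with FST288.

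Some of these calls for related genes rested on few arrays. With FST288, those of Mgll (adjusted p = 0.104), Ces1d (0.077), Ces3a (0.323), Pnpla7 (0.195), Aup1 (0.202), Mettl7b (0.0671), Ldah (0.0561), Srebf1 (0.0748) and Mlxipl (0.0906) were lost by limma without the acinar-high arrays, which leaves 1 HFD FST288 array. With the acinar covariate, Mgll, Ces1d, Ces3a, Pnpla7, Aup1 and Mlxipl were not called, and neither setting called Ces3b for FST288 in HFD livers (0.44 and 0.43, adjusted p = 0.72 and 0.624). Leaving out LTKO FST288 replicate 1 ended the calls of Mgll and Srebf1, and leaving out replicate 2 that of Ces1d. With GFP, the calls of Aup1 and Ces1f were lost without LTKO GFP replicate 1 and that of Ppargc1a without LTKO GFP replicate 2.

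**Figure D5:**
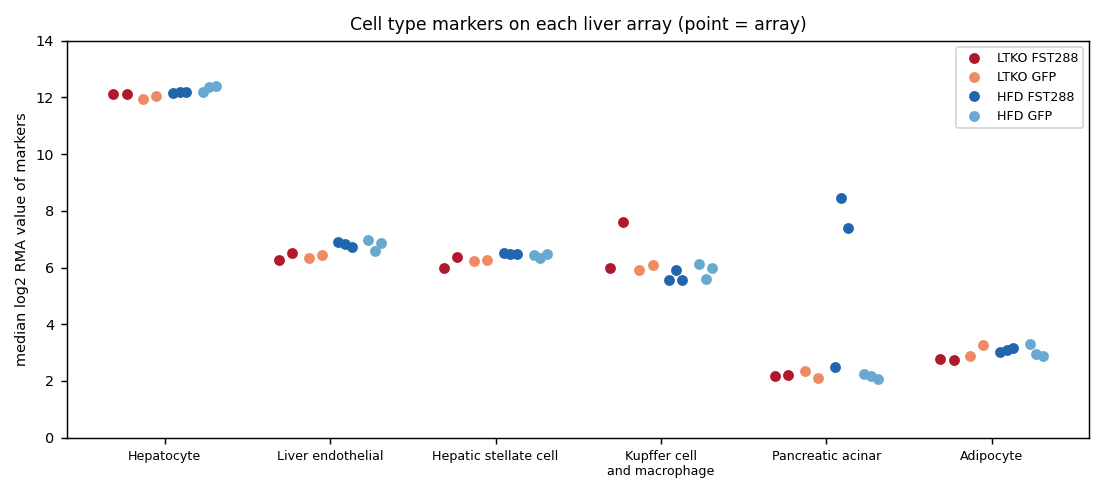
Median log2 RMA value (vertical axis) of the markers of 6 cell types on each array, by group. Hepatocyte markers lie between 11.96 and 12.41 throughout; acinar markers are at 8.44 and 7.40 on 2 HFD FST288 arrays and macrophage markers at 7.59 on 1 LTKO FST288 array.

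Since Cidea, Cidec, Plin4, G0s2 and Pnpla2 are also strong fat cell genes, markers of other cells were read beside them. In bulk tissue, more cells of a type and more RNA per cell cannot be told apart. The median of 6 adipocyte markers was 2.74 to 2.76 in LTKO FST288, 2.89 to 3.26 in LTKO GFP, 3.04 to 3.15 in HFD FST288 and 2.90 to 3.30 in HFD GFP livers. Its defining genes Adipoq (1.41 to 2.40) and Lep (1.66 to 2.56) were under the array median on all 10 arrays. Plin1 was under it on 7 arrays and Retn on 5. Fabp4 (3.74 to 5.51) and Lpl (3.86 to 5.19) were under it on 0 arrays. Of the 6, Lpl was called higher in LTKO than in HFD livers with either vector (0.75 ± 0.18 with GFP and 0.88 ± 0.18 with FST288). Fabp4 was called lower with FST288 (-1.12 ± 0.29), and no other adipocyte marker was called by limma in these comparisons.

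Of 7 Kupffer cell and macrophage markers, 5 were higher in LTKO FST288 than in HFD FST288 livers and 0 lower, and 0 were called for LTKO against HFD livers with GFP. Their part in the Cidec result was not tested. Without the array high in them, the Cidec change with FST288 in LTKO livers was 1.00 and not called (limma, adjusted p = 0.0744), with 1 LTKO FST288 array left. Other markers were also called between LTKO and HFD livers by limma, where 13.1% of all genes were called with GFP and 10.3% with FST288. Of 7 hepatocyte markers, 3 were lower with GFP and 2 with FST288, and 0 were higher. Of 7 stellate markers, 1 was higher and 1 lower with GFP, and 2 were higher with FST288. Of 5 endothelial markers, 1 was lower with GFP, and 1 was higher and 1 lower with FST288. Of 8 acinar markers, 3 were lower with FST288, and 0 of 4 cholangiocyte markers were called. For FST288 in HFD livers, 1 hepatocyte and 1 stellate marker were lower, where 0.419% of all genes fell. The part of these cells in the results was not tested. Medians of the 7 stellate markers ran from 5.98 to 6.51, those of the 5 endothelial markers from 6.26 to 6.96 and those of the 4 cholangiocyte markers from 2.78 to 3.21 over all arrays.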

How the data were processed

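RNA of 10 liver samples was measured on Affymetrix whole-transcript arrays, 1 array each. The deposited table holds log2 values made by the authors with RMA in Affymetrix Expression Console, per the submitters' processing notes; no version is stated, and the base of the logarithm is inferred from RMA. Arrays give no counts, so the number of arrays limits the precision. Of 41345 transcript clusters, 23521 had 1 symbol in GEO's platform annotation, 1814 several and 16010 none listed. The brightest cluster per symbol gave 22180 genes, with no filter on dim genes. All arrays entered one limma model (limma 3.58.1, R 4.3.3) with a mean for each group and eBayes with an intensity trend. It left 6 residual degrees of freedom, with a prior of 7.15. P-values of each of 5 contrasts were adjusted by Benjamini-Hochberg over all genes. The fit was tested on simulated data drawn independently for each gene. These held no effect shared by genes of an array, such as that of the acinar markers, so the test does not cover one. The members, the related gene lists, the markers and the 9 kinds of alternative were chosen with earlier results of these data known; 2 alternatives on acinar markers were added after seeing the arrays. All 10 genes were named by rule; genes of the related lists were named where called, and Lipe, Hilpda, Ppara and Pparg after their values were seen.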

Additional observations from a re-analysis of the deposited data

How the results depend on the processing

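Calls of G0s2, Plin5 and Plin2 in LTKO against HFD livers held in every alternative run, with either vector, as did that of Cidec with FST288. The count of called genes of the set (2 for FST288 in HFD livers, 1 in LTKO livers) was less stable. In HFD livers it was 1 without the intensity trend, over all clusters, at an adjusted p under 0.01 and with the acinar covariate, and 0 without the acinar-high arrays, which leaves 1 HFD FST288 array that is assumed to vary like the other groups. In LTKO livers it was 0 with the LTKO arrays alone, over all clusters and at an adjusted p under 0.01. Leaving out 1 array gave 1 to 2 in HFD and 0 to 1 in LTKO livers; for LTKO against HFD livers 3 in each fit with GFP and 4 to 5 with FST288, and 0 for the difference of effects. Deviations of same-numbered replicates from their group means had correlations from -0.07 to 0.03 over all genes. Such a correlation would miss a batch that acts on few genes, and in groups of 2 the deviations mirror each other. The check thus cannot exclude a shared batch or animal. With a replicate block, 2, 1, 3 and 5 genes of the set were called in the 4 comparisons and 0 for the difference.

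Over all genes, 221 were called for FST288 in HFD livers: 411 with the HFD arrays alone, 101 without the trend, 80 over all clusters and 80 at 0.01, 6 without the acinar-high arrays, 26 with the covariate and 80 to 307 leaving out 1 array. In LTKO livers 37 were called: 0 with the LTKO arrays alone, 16 without the trend, 15 over all clusters, 8 at 0.01, 16 without the acinar-high arrays, 23 with the covariate and 21 to 237 leaving out 1 array, the highest without LTKO FST288 replicate 1. For LTKO against HFD livers with GFP, 2902 became 1665 at 0.01 and 1870 to 3037 leaving out 1 array; with FST288, 2293 became 1357 at 0.01, 939 without the acinar-high arrays, 1071 with the covariate and 1533 to 2390 leaving out 1 array. For the difference of effects, 48 became 3 without the trend, 6 over all clusters, 8 at 0.01, 1 without the acinar-high arrays, 1 with the covariate and 11 to 266 leaving out 1 array. The cause was not tested. A fit of the groups contrasted alone does not exist for the difference of effects, which uses all arrays.

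Signs turned for values near 0, none of them called. For FST288 in HFD livers, Plin2 was -0.0242 with quantile normalization and Cidea -0.0539 without the acinar-high arrays and -0.0907 with the covariate. For LTKO against HFD livers, Plin4 was 0.0753 with GFP and Plin3 0.0679 with FST288 under a replicate block. Leaving out 1 array, Plin3 ranged from -0.151 to 0.190 for FST288 in HFD livers and Pnpla3 from -0.0312 to 0.260 in LTKO livers. For LTKO against HFD livers, Cidec ranged from -0.0227 to 0.153 and Plin4 from -0.239 to 0.210 with GFP, and Plin3 from -0.0575 to 0.0129 with FST288. For the difference of effects, Plin2 ranged from -0.0159 to 0.227, Plin4 from -0.405 to 0.0433 and Pnpla2 from -0.0513 to 0.0721.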
